A study of Saccharomyces cerevisiae with 39 samples.

Results

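Cell wall mannoproteins are heavily glycosylated proteins of the outer layer of the yeast wall. The 10 genes described here are TIP1 (YBR067C), TIR1 (YER011W), CWP1 (YKL096W), CWP2 (YKL096W-A), SED1 (YDR077W), CCW12 (YLR110C), CIS3 (YJL158C), PIR1 (YKL164C), PIR3 (YKL163W) and HSP150 (YJL159W). They are 10 of the 6186 features of the count table, were taken by these identifiers, and all 10 passed the filter on low counts that 5840 features passed. TIP1 was chosen by its measured level, which was raised in the W177A strain over the CUP1_WT strain, and the other 9 were listed with it as wall mannoprotein genes. For that reason no test is given for TIP1 in any comparison with CUP1_WT or W177A, nor for any of the 10 in W177A against CUP1_WT.

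The transcripts were measured by poly(A)-selected RNA sequencing of diploid Saccharomyces cerevisiae in sporulation medium, in 13 strains with 3 libraries each. The series asks which stretches of the disordered region of Pho92, a reader of methylated mRNA with a YTH domain, are needed for mRNA turnover that depends on N6-methyladenosine (m6A). All strains were MATa/alpha and carried trp1::hisG, his3::hisG, leu2::hisG, ura3, lys2 and ho::LYS2, and all received 50 µM copper sulphate 3 h after transfer to sporulation medium. WT kept its own PHO92, and pho92_null carried pho92::HYG. The other 11 strains carried hyg::pho92 together with an HA-tagged PHO92 under the copper-induced CUP1 promoter at trp1. That copy was unchanged in CUP1_WT, carried W177A, W5A, W18A or both W5A and W18A in the strains named after them, and lacked residues 1 to 70 in del1_70, 28 to 52 in del28_52 and 110 to 155 in del110_155. It lacked 28 to 52 and 130 to 155 in del28_52_130_155, and it carried both substitutions and lacked 28 to 52 in W5A_W18A_del28_52. The titles of W5A_W18A_del28_52_110_155 give both substitutions and the deletions of 28 to 52 and 110 to 155, while its genotype field gives the deletions alone. The protocols mention an arrest in early meiosis and degron strains, and no genotype lists such an allele. Nothing in the labels says that the 3 libraries of a strain came from separate cultures or clones, so p-values measure the spread between these libraries, which may be technical.

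Mannoproteins of the wall fall into 2 classes by how they are held there. Those that carry a glycosylphosphatidylinositol (GPI) signal, among them Tip1, Tir1, Cwp1, Cwp2, Sed1 and Ccw12, are moved from the plasma membrane to the wall and joined to glucan. The PIR proteins, named for their internal repeats and here Cis3, Pir1, Pir3 and Hsp150, are bound directly to beta-1,3-glucan. Wild-type diploids that complete sporulation build a spore wall inside the mother cell, whose own wall persists around the spores.

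Library totals lay between 15928411 and 37186964 counts (median 20694394). PHO92, the deleted gene, had 0.941, 2.37 and 0.0919 CPM (counts scaled to a common library total) in the 3 pho92_null libraries, against 938 ± 127 CPM in WT and 9746 ± 1519 CPM in CUP1_WT (SD, n = 3 each). The 10 early meiosis markers summed to between 4476 and 24062 CPM in a library, and del110_155 replicate 3 was the lowest, so that library stands apart. The 10 middle meiosis markers summed to between 101 and 20593 CPM. Haploid markers were low, at 63.8 to 88.9 CPM for the 5 a-specific and 68.0 to 197 CPM for the 4 alpha-specific genes summed, although some were called against pho92_null. Of the 4 alpha-specific genes, 2 were higher in WT, and 3 were higher and 1 lower in CUP1_WT. Of the 5 a-specific genes, none was called in WT, and 2 were higher and 1 lower in CUP1_WT. In a bulk sample, fewer cells that express a gene and less of its RNA per cell cannot be told apart.

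TIP1 encodes a major wall mannoprotein that is known to be induced by cold and heat shock. In the comparison that chose it, the 3 CUP1_WT libraries had 167, 136 and 192 CPM of TIP1, and those of W177A had 623, 567 and 802 CPM. The lowest W177A library thus lay far above the highest CUP1_WT library, and the difference of the means was 2.00 on the log2 scale. That value lay between 1.83 and 2.08 over 46 other fits. Over all 13 strains the means of log2 CPM of TIP1 spanned 4.19-fold, and the plain means ran from 165 ± 27.9 CPM in CUP1_WT to 688 ± 64.2 CPM in del110_155 (SD, n = 3 each).

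**Figure D1:**
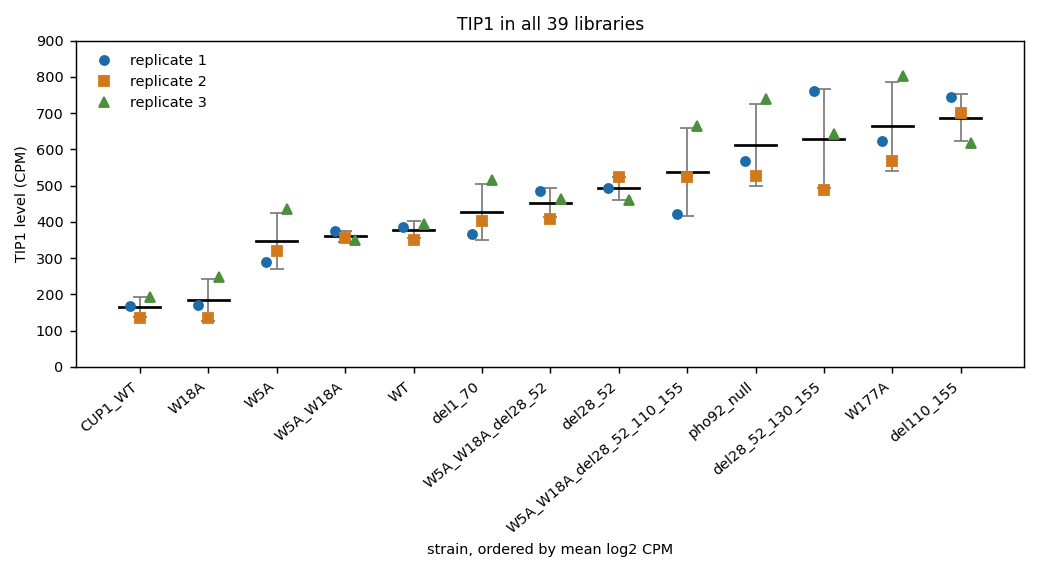
TIP1 level in CPM in each of the 39 libraries, by strain, with the strain mean (black line), its SD (grey bar, n = 3) and the replicate number as symbol. CUP1_WT and W18A lie lowest, and the 3 libraries of W5A lie above all 3 of W18A, which is the only step between neighbouring strains without overlap.

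The order of TIP1 from low to high was CUP1_WT, W18A, W5A, W5A_W18A, WT, del1_70, W5A_W18A_del28_52, del28_52, W5A_W18A_del28_52_110_155, pho92_null, del28_52_130_155, W177A and del110_155. Of the 12 steps between neighbours in that order, 11 joined strains whose libraries overlapped. The exception was W18A, with 171, 136 and 249 CPM, below W5A, with 289, 321 and 435 CPM. CUP1_WT and W18A were the low pair.

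Against pho92_null, the comparison that asks what the presence of a PHO92 copy does, TIP1 was tested in 10 strains and fell in 4 of them. A gene is called here where the limma adjusted p over all 5840 features is under 0.05. TIP1 had 569, 526 and 740 CPM in pho92_null. W18A libraries lay below all of these, at a log2 difference of -1.75 (SE 0.20, limma adjusted p = 2.03e-07), and this call held in all 7 other settings and without any 1 of the 39 libraries. WT had 387, 352 and 396 CPM, a log2 difference of -0.68 (SE 0.20, limma adjusted p = 0.0124), and W5A one of -0.82 (SE 0.20, limma adjusted p = 0.00587). W5A_W18A had 376, 355 and 349.5 CPM, a log2 difference of -0.75 (SE 0.20, limma adjusted p = 0.013). In each of these 4 strains every library lay below every pho92_null library. CUP1_WT was not tested, since its level chose the gene, and stood at -1.89. The calls of WT, W5A and W5A_W18A were lost without pho92_null replicate 3 (limma adjusted p = 0.0756, 0.0569 and 0.103), that of WT also without WT replicate 2 (0.075) and that of W5A without W5A replicate 1 (0.0563). A fit of the compared strains alone also lost the calls of WT (limma adjusted p = 0.0516) and W5A (0.0942). Replicates 1 and 2 alone lost that of W5A_W18A (0.0682). Over all alternatives the limma adjusted p ran from 0.00209 to 0.0756 for WT, from 0.000857 to 0.0942 for W5A and from 0.00206 to 0.103 for W5A_W18A.

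In the strains that lack residues of Pho92, TIP1 was not called against pho92_null in the fit with strain as its only term. The log2 difference from pho92_null was -0.51 in del1_70 (95% interval -0.92 to -0.10), -0.30 in del28_52 (-0.71 to 0.11), 0.18 in del110_155 (-0.23 to 0.59) and 0.03 in del28_52_130_155 (-0.37 to 0.44). It was -0.42 in W5A_W18A_del28_52 (-0.83 to -0.01) and -0.20 in W5A_W18A_del28_52_110_155 (-0.60 to 0.21). The libraries of del1_70, del28_52 and W5A_W18A_del28_52 lay wholly below those of pho92_null, and the other 3 strains overlapped them. For del1_70 the limma adjusted p was 0.0878, where 10.6% of all features were called, against 33.2% in the comparison of WT. Its interval overlapped that of WT (-1.09 to -0.27), and with the replicate block it was called. No direct test of these strains against WT, W5A, W18A or W5A_W18A was made. Set against CUP1_WT and given without a test, TIP1 overlapped in W18A alone, at a log2 difference of 0.13. In the other strains the difference ran from 1.07 in W5A to 2.07 in del110_155. TIP1 was chosen for a level in CUP1_WT below that of W177A. The low place of CUP1_WT among the strains therefore follows in part from that choice.

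TIR1 is a relative of TIP1 that is known to be induced by cold shock and lack of oxygen. It was low, between 7.94 CPM in del110_155 replicate 3 and 50.8 CPM, with a median library of 31.9 CPM. It did not follow TIP1: over the 13 strain means of log2 CPM, which share the libraries and their scaling, the 2 genes had a Pearson r of -0.29, and of -0.12 without del110_155. In pho92_null TIR1 had 34.4, 13.3 and 13.5 CPM, so replicate 1 stood apart from the other libraries of that strain. CUP1_WT had 33.1, 44.3 and 32.3 CPM, a rise over pho92_null of 0.98 on the log2 scale (SE 0.37, limma adjusted p = 0.0386), although the groups overlapped. W5A_W18A_del28_52_110_155 had 42.0, 50.8 and 31.9 CPM, a rise of 1.15 (SE 0.37, limma adjusted p = 0.0438), again with overlap. WT, at 34.9, 35.5 and 32.9 CPM, did not pass (log2 0.90, limma adjusted p = 0.0622). The CUP1_WT call was lost without CUP1_WT replicate 1 (0.0647) or 2 (0.125) and without pho92_null replicate 2 (0.182) or 3 (0.164). That of W5A_W18A_del28_52_110_155 was lost without its own replicate 1 or 2, pho92_null replicate 2 or 3, W5A replicate 2, W5A_W18A replicate 3 or del28_52 replicate 1 (limma adjusted p from 0.0505 to 0.231). Both calls were also lost in a fit of the compared strains alone (limma adjusted p = 0.0953 and 0.21). Over all alternatives the limma adjusted p ran from 0.00417 to 0.182 and from 0.00615 to 0.231.

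CWP1 encodes a mannoprotein linked to glucan that is known from vegetative cells to sit at the birth scar. It was the most variable of the 10, with strain means of log2 CPM that spanned 16.9-fold. The highest library, CUP1_WT replicate 1, had 3849 CPM and the lowest, del110_155 replicate 3, had 87.5 CPM. WT had 3285, 2558 and 728 CPM, CUP1_WT 3849, 2072 and 606 CPM, W18A 3140, 1830.3 and 448 CPM, and pho92_null 553, 281 and 138 CPM. In each of these strains replicate 3 was the lowest library. CWP1 rose over pho92_null in WT by 2.72 on the log2 scale (SE 0.86, limma adjusted p = 0.0176), in CUP1_WT by 2.60 (SE 0.86, limma adjusted p = 0.0175) and in W18A by 2.30 (SE 0.86, limma adjusted p = 0.0349). The libraries of WT and of CUP1_WT did not overlap those of pho92_null, and those of W18A did.

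The middle meiosis markers moved with CWP1. These are 10 genes such as NDT80, SPS1, SPS2 and SMK1, known to be switched on around the meiotic divisions, and 9 of the 10 were called higher than in pho92_null in WT and in CUP1_WT, with 1 not called in each. Their sum was 17572, 14571 and 4589 CPM in WT, 20593, 12971 and 4497 CPM in CUP1_WT, 17763, 11308 and 3735 CPM in W18A, and 3285, 1024 and 430 CPM in pho92_null. Replicate 3 was the lowest library of each of these strains for the sum, as for CWP1. Over the 13 strain means, CWP1 and the marker sum had a Pearson r of 0.99 on the log2 scale, and 0.98 without del110_155. The part of the marker genes in the CWP1 differences was not tested.

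**Figure D2:**
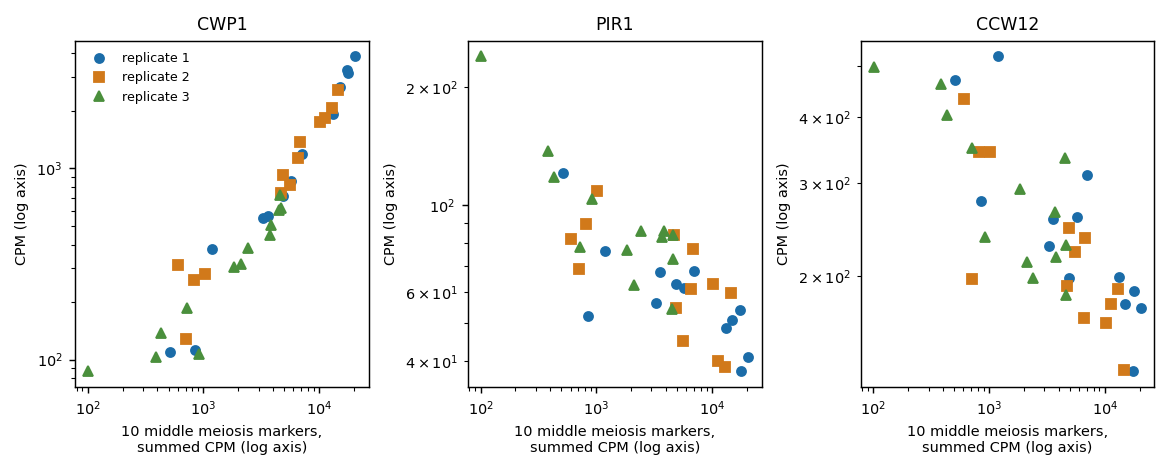
CWP1, PIR1 and CCW12 levels in CPM (log axis) against the summed CPM of 10 middle meiosis markers (log axis), 1 point per library and the replicate number as symbol. CWP1 rises with the marker sum across the 39 libraries, from 87.5 CPM in del110_155 replicate 3 to 3849 CPM in CUP1_WT replicate 1, while PIR1 and CCW12 tend to be lower where the sum is high.

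The calls of CWP1 against pho92_null depended on single libraries. That of WT was lost without WT replicate 1 (limma adjusted p = 0.095) or 2 (0.0711) and without pho92_null replicate 2 (0.0568) or 3 (0.0891). That of CUP1_WT was lost without CUP1_WT replicate 1 (0.107) or 2 (0.0548) and without pho92_null replicate 3 (0.0914), and that of W18A without W18A replicate 1 (0.176) or 2 (0.109) and without pho92_null replicate 2 (0.0834) or 3 (0.156). In a fit of the compared strains alone each was lost (limma adjusted p = 0.0533 for WT, 0.0527 for CUP1_WT and 0.0818 for W18A). None of these fits had a term for the replicate number. With that number as a block, in all libraries, each call held, although the labels state no pairing. Over all alternatives the limma adjusted p ran from 0.000103 to 0.095 for WT, from 8.71e-05 to 0.107 for CUP1_WT and from 0.000384 to 0.176 for W18A.

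CWP2, the neighbour of CWP1 on the chromosome, encodes a major GPI mannoprotein known for wall stability and resistance to low pH. It was the least variable of the 10, with strain means that spanned 1.49-fold, and its strain means had a Pearson r of -0.46 with those of CWP1, and of -0.74 without del110_155. Its strain mean was highest in pho92_null, with 72.3, 62.8 and 80.3 CPM, and all 12 other strains lay below. CUP1_WT had 41.3, 42.1 and 63.2 CPM, a fall of -0.58 (SE 0.17, limma adjusted p = 0.00846), W18A 46.1, 49.0 and 53.3 CPM, a fall of -0.53 (SE 0.17, limma adjusted p = 0.0153), and WT 46.3, 52.2 and 60.2 CPM, a fall of -0.44 (SE 0.17, limma adjusted p = 0.0437). WT and W18A lay wholly below pho92_null, and CUP1_WT overlapped it by a narrow margin. The difference of del110_155 was also -0.44 (SE 0.17) and was not called (limma adjusted p = 0.283). In that comparison 0.205% of all features were called, and 33.2% in that of WT. The CUP1_WT call was lost without CUP1_WT replicate 1 (0.0806) or 2 (0.0699), and the W18A call without W18A replicate 1 (0.0736) or pho92_null replicate 3 (0.0748). A fit of the compared strains alone also lost the CUP1_WT call (0.0945), and replicates 1 and 2 alone lost the W18A call (0.0545). The WT call was lost with other size factors, without the low-count filter, with the compared strains alone (0.0839) and with replicates 1 and 2 alone (0.109). It was also lost without WT replicate 1 or 2, any 1 of the pho92_null libraries, CUP1_WT replicate 1 or 2, W177A replicate 2, W18A replicate 1, del1_70 replicate 3, del28_52_130_155 replicate 1 or W5A_W18A_del28_52 replicate 3. Over all alternatives the limma adjusted p ran from 0.0192 to 0.166 for WT, from 0.00126 to 0.0945 for CUP1_WT and from 0.00508 to 0.0748 for W18A.

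CCW12 encodes a small GPI mannoprotein that is placed where new wall is made, and it moved the other way from CWP1. WT had 132, 133 and 184 CPM and pho92_null 228, 344 and 404 CPM. The WT libraries lay wholly below, a fall of -1.10 on the log2 scale (SE 0.26, limma adjusted p = 0.00368), and this call held in all 7 other settings and without any 1 of the 39 libraries (limma adjusted p from 0.00045 to 0.0485). W5A_W18A_del28_52_110_155 had 176.8, 163 and 198 CPM, a fall of -0.82 (SE 0.26, limma adjusted p = 0.0395), also without overlap. That call was lost without its own replicate 1 (0.0796) or 2 (0.168) and without pho92_null replicate 2 (0.189) or 3 (0.158). A fit of the compared strains alone also lost it (0.203), in a range of 0.00943 to 0.203 over all alternatives. CUP1_WT, at 174, 189 and 335 CPM, did not pass against pho92_null (log2 -0.51, 95% interval -1.04 to 0.03). The strains with the highest CCW12 were W5A, at 522, 433 and 463 CPM, and W5A_W18A, at 470.3, 343 and 350.4 CPM.

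SED1 encodes an abundant structural mannoprotein known from stationary and stressed cells. Its libraries ran from 5728 CPM in del110_155 to 17446 CPM in pho92_null, with a median of 9804 CPM, and its strain mean was highest in pho92_null (13379 ± 3546 CPM, SD, n = 3). The log2 differences of the 12 other strains were all below 0, from -0.98 in del110_155 (-0.96 without its replicate 3) to -0.14 in WT, and none of the 12 passed in the fit with strain as its only term. CUP1_WT, at 8349, 9804 and 6724 CPM, lay wholly below pho92_null, at 11759, 17446 and 10933 CPM. It came closest by adjusted p (log2 -0.68, SE 0.28, limma adjusted p = 0.0519), and with voom weights it passed. The larger difference of del110_155 had the same SE and a limma adjusted p of 0.141. In that comparison 0.205% of all features were called, and 39.9% in that of CUP1_WT. Replicate 3 was the lowest SED1 library in 11 of the 13 strains.

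**Figure D3:**
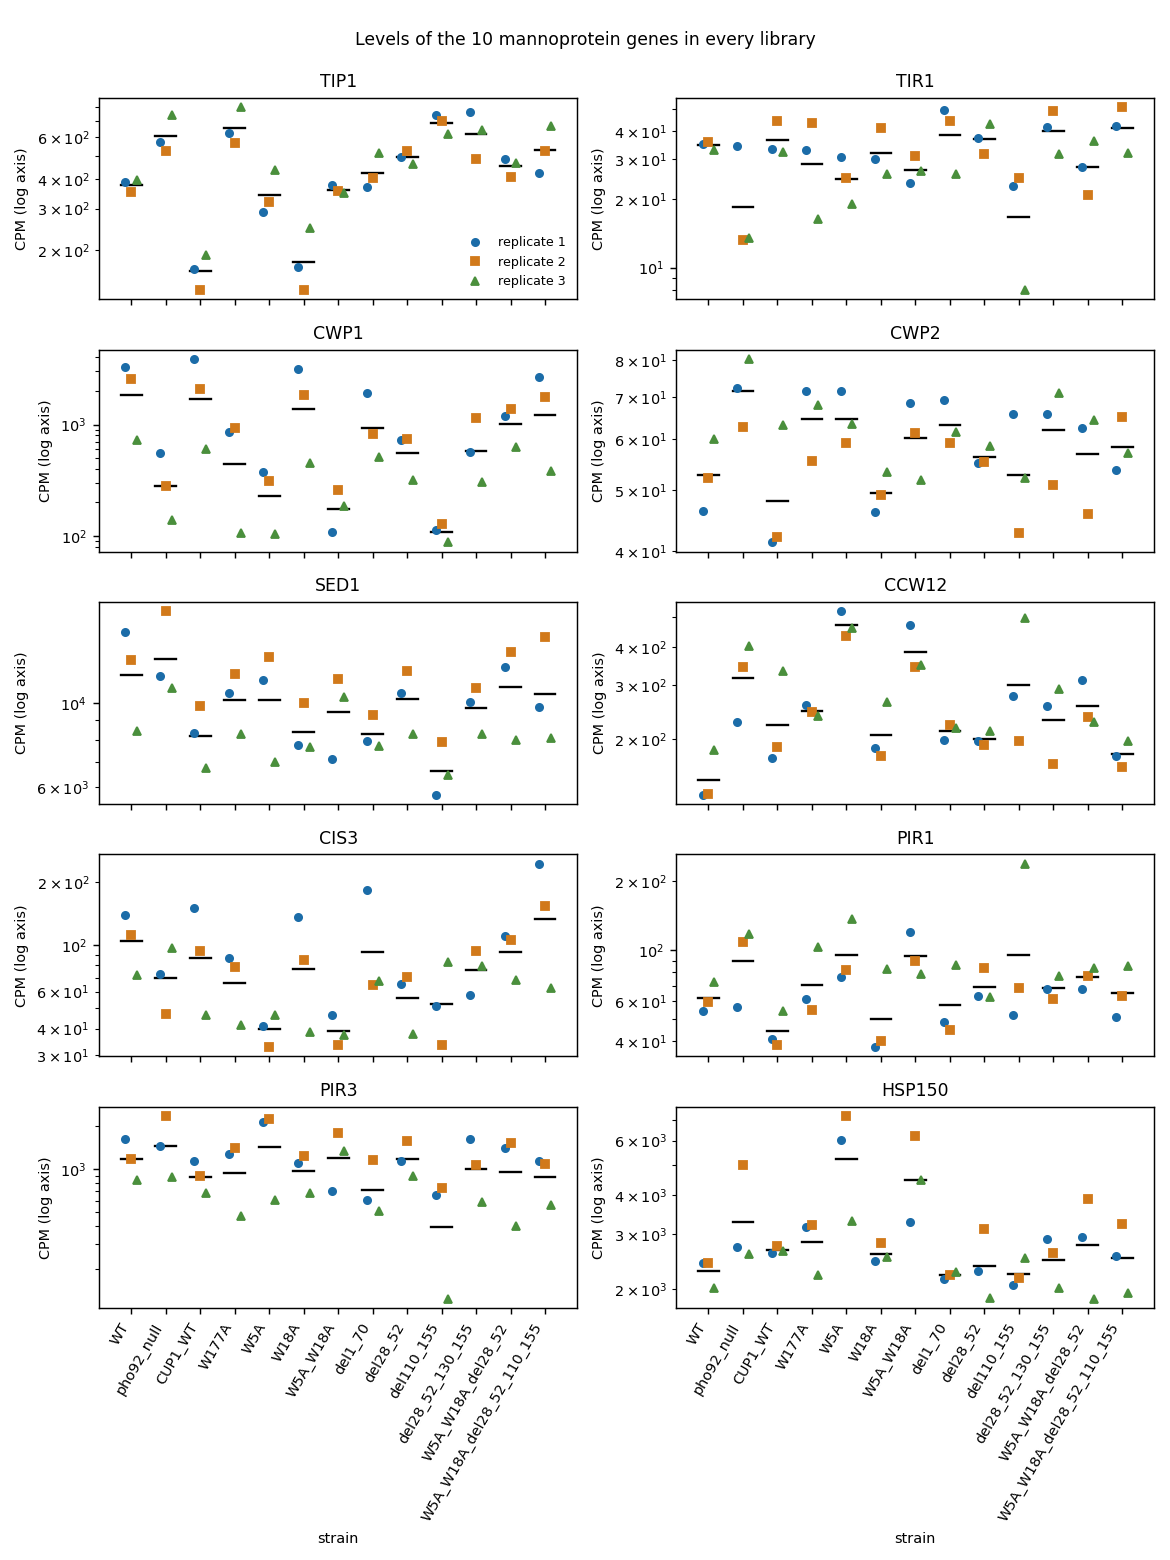
Levels of the 10 genes in CPM (log axes, each panel with its own range) in all 39 libraries, by strain, with the replicate number as symbol and the mean of log2 CPM as a line. CWP1 spans the widest range and CWP2 the narrowest, and replicate 3 is the lowest library for CWP1 in 12 of the 13 strains.

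Among the PIR genes, CIS3 and HSP150 are neighbours on the chromosome, as are PIR1 and PIR3. Over the 13 strain means of log2 CPM, PIR1 and PIR3 had a Pearson r of 0.08, which became 0.70 without del110_155. CIS3 and HSP150 had an r of -0.67, and of -0.79 without that strain. PIR1 had 56.2, 109 and 118 CPM in pho92_null and 40.8, 38.6 and 54.1 CPM in CUP1_WT, which lay wholly below, a fall of -1.02 on the log2 scale (SE 0.39, limma adjusted p = 0.0386). In the fit with strain as its only term it was the 1 call among the 4 PIR genes against pho92_null in the 12 strains. It was lost without CUP1_WT replicate 1 (0.115) or 2 (0.126) and without pho92_null replicate 2 (0.136) or 3 (0.149). A fit of the compared strains alone also lost it (0.0601), in a range of 0.00356 to 0.149 over all alternatives. PIR3 had a lower mean of log2 CPM than pho92_null in all 12 other strains, from -1.87 in del110_155 to -0.01 in W5A, and none passed in the fit with strain as its only term, while its plain mean in W5A (1653 CPM) was above that of pho92_null (1555 CPM). Its lowest library was del110_155 replicate 3, at 124 CPM, where the other libraries of that strain had 663 and 739 CPM. Without that library the log2 difference of del110_155 was -1.04 (SE 0.60, limma adjusted p = 0.753). CIS3 ran from 32.8 to 244 CPM and HSP150, which is also secreted and induced by heat shock, from 1856 to 7214 CPM. Neither was called against pho92_null in any of the 12 strains in the fit of all 39 libraries with strain as its only term. With replicates 1 and 2 alone CIS3 was called in WT (39.2% of all features called) and in W5A_W18A_del28_52_110_155 (28.5%). HSP150 was called in W5A in that fit (15.4%) and with the replicate block (21.9%). The 4 PIR genes code for proteins with similar repeats, and how reads shared between such copies were counted is not given in the sources used here, so a split between them is uncertain.

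**Figure D4:**
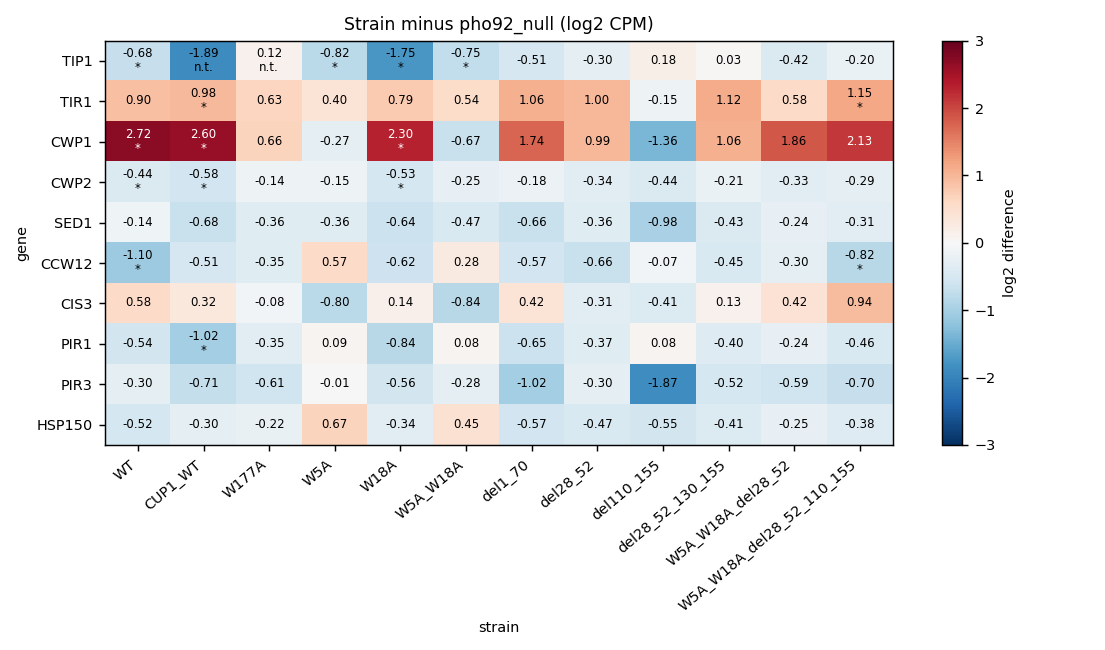
Difference in log2 CPM between each strain and pho92_null for the 10 genes, red where higher and blue where lower in the strain. An asterisk marks a limma adjusted p under 0.05 over all features and n.t. a value that was not tested because it chose TIP1, and the calls lie in TIP1, TIR1, CWP1, CWP2, CCW12 and PIR1.

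Counted over the comparisons with pho92_null, the 10 genes were called at shares near those of all features in WT, CUP1_WT and W18A. In WT 4 of 10 were called, 1 higher and 3 lower, where 33.2% of all features were called. In CUP1_WT 4 of the 9 tested were called, 2 higher and 2 lower, against 39.9% of all features, and in W18A 3 of 10 (1 higher, 2 lower) against 38.4%. TIP1 alone was called in W5A, where 14.6% of all features were, and in W5A_W18A, where 10.5% were. W5A_W18A_del28_52_110_155 had 2 of 10, 1 in each direction, against 11.7%. None of 9 was called in W177A (4.83% of all features) and none of 10 in del1_70 (10.6%), del28_52 (4.5%), del110_155 (0.205%), del28_52_130_155 (3.42%) or W5A_W18A_del28_52 (0.925%). At an unadjusted limma p under 0.05 these counts were 0 of 9 in W177A (24.1% of all features at that threshold), 4 of 10 in del1_70 (30.5%), 2 in del28_52 (24.3%), 3 in del110_155 (12.1%), 1 in del28_52_130_155 (22.1%) and 2 in W5A_W18A_del28_52 (16.3%). Calls by voom at the adjusted threshold were 0 in each. The median log2 difference of the 10 genes was below 0 in all 12 comparisons, from -0.55 in W18A to -0.08 in W5A, while the median of all features lay between -0.04 and 0.04. The untested TIP1 values count in these medians. All 12 share the pho92_null libraries.

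Leaving out libraries moved these counts. The 4 calls in WT became 1 without WT replicate 2 or pho92_null replicate 3, and 2 without WT replicate 1 or pho92_null replicate 2. The 4 in CUP1_WT became 0 without CUP1_WT replicate 1 or 2, 1 without pho92_null replicate 3 and 2 without pho92_null replicate 2. The 3 in W18A became 6 without pho92_null replicate 1, 5 without W18A replicate 3 or del110_155 replicate 3, and 1 without pho92_null replicate 3 or W18A replicate 1. The 1 in W5A became 2 without pho92_null replicate 2 or W5A replicate 3, and 0 without pho92_null replicate 3 or W5A replicate 1. The 1 in W5A_W18A became 0 without pho92_null replicate 3. The 2 in W5A_W18A_del28_52_110_155 became 4 without its own replicate 3, and 0 without its own replicate 1 or 2 or pho92_null replicate 2 or 3. They became 1 without W5A replicate 2, W5A_W18A replicate 3 or del28_52 replicate 1. Strains with 0 calls gained 2 without pho92_null replicate 1 in del1_70 and in del28_52, and 1 in del28_52_130_155. They gained 1 without del110_155 replicate 3 in del1_70, del28_52 and del28_52_130_155, and del1_70 gained 1 without W177A replicate 3 or del1_70 replicate 3. The share of all features called moved too, over the fits that left out a library, from 14.3% to 38.5% in WT, from 24.6% to 45.4% in CUP1_WT, from 22.7% to 43.3% in W18A and from 0.24% to 23.5% in W5A_W18A_del28_52_110_155. A fit of the 6 libraries of a comparison alone gave 1 call in WT, where 7.45% of all features were called in that fit, 0 in CUP1_WT (16.5%) and 0 in W5A (2.03%). A fit of replicates 1 and 2 alone gave 3 in W5A (15.4%), 5 in W18A (42.3%) and 0 in W5A_W18A (9.34%).

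Comparisons with CUP1_WT ask which changes to the induced copy alter its effect. The RNA level of that copy was not equal between strains. PHO92 had 14790 ± 659 CPM in W5A and 14852 ± 1959 CPM in W5A_W18A, wholly above CUP1_WT (9746 ± 1519 CPM, SD, n = 3 each). It had 5543 ± 150 CPM in W5A_W18A_del28_52_110_155, wholly below. These PHO92 differences were not called (limma adjusted p = 0.275, 0.289 and 0.272), and their part in the values below was not tested. The most calls among the 9 genes tested were made in W5A and W5A_W18A, at shares near those of all features. In W5A 5 of 9 were called, 4 higher and 1 lower, where 39% of all features were called. In W5A_W18A 4 of 9 were called, 3 higher and 1 lower, where 33.2% were. PIR1, HSP150 and CCW12 rose and CWP1 fell in each of them, and both are compared with the same CUP1_WT libraries. The 5 calls of W5A became 2 without CUP1_WT replicate 1 or W5A replicate 3, and 3 without CUP1_WT replicate 2 or W5A replicate 2. The 4 of W5A_W18A became 0 without CUP1_WT replicate 1, 1 without CUP1_WT replicate 2 and 2 without W5A_W18A replicate 1 or 2. Over the fits that left out a library the share of all features called ran from 21.4% to 44.6% in W5A and from 14.2% to 39.9% in W5A_W18A, lowest in both without CUP1_WT replicate 1.

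CWP1 had 377, 314 and 104 CPM in W5A and 109, 261 and 187 CPM in W5A_W18A, all 6 values below the lowest CUP1_WT library. The fall was -2.87 on the log2 scale in W5A (SE 0.86, limma adjusted p = 0.00956) and -3.27 in W5A_W18A (SE 0.86, limma adjusted p = 0.00536). The middle meiosis marker sum was low in the same strains, at 1195, 603 and 385 CPM in W5A and 511, 823 and 717 CPM in W5A_W18A, and its part in the CWP1 fall was not tested. The W5A call was lost without CUP1_WT replicate 1 (0.0735) or W5A replicate 3 (0.0578), in a range of 4.38e-05 to 0.0735 over all alternatives. The W5A_W18A call was lost without CUP1_WT replicate 1 (0.0518), in a range of 1.08e-05 to 0.0518.

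CCW12 in W5A lay wholly above CUP1_WT, a rise of 1.08 (SE 0.26, limma adjusted p = 0.00233) that held in all 7 other settings and without any 1 of the 39 libraries. In W5A_W18A the rise was 0.79 (SE 0.26, limma adjusted p = 0.0217), also without overlap. It was lost without CUP1_WT replicate 1 (0.159) or 2 (0.11), without W5A_W18A replicate 1 (0.105) and in a fit of the compared strains alone (0.0571), in a range of 0.000773 to 0.159. HSP150 had 2606, 2757 and 2648 CPM in CUP1_WT, the tightest of its groups but for del1_70, and 6036, 7214 and 3296 CPM in W5A. It rose in W5A by 0.97 (SE 0.28, limma adjusted p = 0.00837), a call lost without W5A replicate 2 (0.0707), in a range of 0.000769 to 0.0707. W5A_W18A had 3279, 6194 and 4474 CPM, a rise of 0.75 (SE 0.28, limma adjusted p = 0.0412) that was lost without any 1 CUP1_WT library or without W5A_W18A replicate 2 or 3 (0.0692 to 0.205), in a range of 0.0072 to 0.205.

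PIR1 had 76.3, 82.0 and 137 CPM in W5A and 120.4, 89.6 and 78.3 CPM in W5A_W18A, wholly above CUP1_WT in both. The rise was 1.11 in W5A (SE 0.39, limma adjusted p = 0.0265) and 1.10 in W5A_W18A (SE 0.39, limma adjusted p = 0.0315). The W5A call was lost without CUP1_WT replicate 1 (0.0976) or 2 (0.103) and without W5A replicate 3 (0.129), in a range of 0.0024 to 0.129. The W5A_W18A call was lost without CUP1_WT replicate 1 (0.115) or 2 (0.109) and without W5A_W18A replicate 1 (0.122) or 2 (0.0596), in a range of 0.000223 to 0.122. CWP2 rose in W5A by 0.43 (SE 0.17, limma adjusted p = 0.0429), with overlap. That call was lost in the fit of the compared strains alone and in 11 fits that left out a library, those without CUP1_WT replicate 1 or 2, any 1 W5A library, WT replicate 2, W177A replicate 2, W18A replicate 1, del1_70 replicate 3, del28_52_130_155 replicate 1 or W5A_W18A_del28_52 replicate 3, in a range of 0.00658 to 0.278 over all alternatives.

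**Figure D5:**
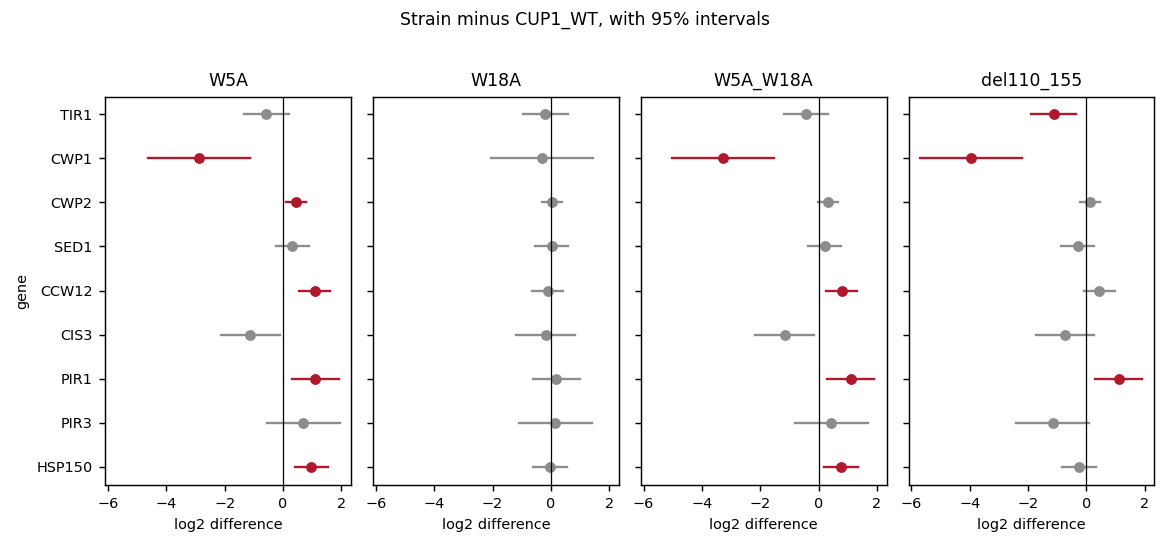
Difference in log2 CPM from CUP1_WT for 9 genes in W5A, W18A, W5A_W18A and del110_155, as points with 95% intervals from the limma fit, red where the adjusted p over all features is under 0.05. CWP1 lies lowest in W5A, W5A_W18A and del110_155, and all intervals of W18A include 0.

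W18A, in contrast, gave no call among the 9 genes, where 0% of all features were called (0 of 5840 with limma and with voom, and 13, or 0.223%, at an unadjusted p under 0.05, none of them among the 9). The log2 differences of the 9 genes lay between -0.30 for CWP1 (95% interval -2.05 to 1.45) and 0.19 for PIR1 (-0.62 to 0.99). The CWP1 difference of W5A was -2.87 (-4.62 to -1.12), an interval that overlaps that of W18A. For CCW12 the interval was -0.65 to 0.43 and for HSP150 it was -0.62 to 0.54. No direct test of W5A against W18A was made.

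Among the deletions, del110_155 had 3 of 9 genes called, 1 higher and 2 lower, where 45.8% of all features were called. CWP1 had 112, 128 and 87.5 CPM there, below every library of CUP1_WT, a fall of -3.97 (SE 0.86, limma adjusted p = 0.000548) that held in all 7 other settings and without any 1 of the 39 libraries. Without del110_155 replicate 3, the library that stands apart, the fall of CWP1 was -3.82 (limma adjusted p = 0.00405). The middle meiosis marker sum of del110_155 was 853, 713 and 101 CPM, and its part in the fall was not tested. TIR1 had 22.8, 24.8 and 7.94 CPM, wholly below CUP1_WT, a fall of -1.13 (SE 0.37, limma adjusted p = 0.0157), and PIR1 52.1, 68.6 and 239.6 CPM, a rise of 1.11 (SE 0.39, limma adjusted p = 0.0228) with overlap. Both leaned on replicate 3, without which TIR1 stood at -0.60 (0.205) and PIR1 at 0.44 (0.343). TIR1 also lost its call without CUP1_WT replicate 2 (0.0697) and PIR1 without CUP1_WT replicate 1 (0.0682) or 2 (0.0767). Both lost it in a fit of the compared strains alone (0.13 and 0.198) and with replicates 1 and 2 alone (0.0827 and 0.054). The count of 3 became 5 without del110_155 replicate 2, and 1 without del110_155 replicate 3 or CUP1_WT replicate 2. Over all alternatives the limma adjusted p ran from 0.0052 to 0.205 for TIR1 and from 0.00326 to 0.343 for PIR1.

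No gene of the 9 was called against CUP1_WT in WT, where 1.66% of all features were, in del1_70 (9.26%), del28_52 (19.3%), del28_52_130_155 (21.6%), W5A_W18A_del28_52 (11.5%) or W5A_W18A_del28_52_110_155 (13%). At an unadjusted limma p under 0.05 the counts were 1 of 9 in WT (10.5% of all features at that threshold), del1_70 (21.1%) and del28_52_130_155 (35.7%). They were 0 of 9 in del28_52 (34.3%), W5A_W18A_del28_52 (26.5%) and W5A_W18A_del28_52_110_155 (24.5%). Without CUP1_WT replicate 3 there was 1 call in del1_70 and 1 in del28_52_130_155, which also had 1 without its own replicate 2. CWP1 in del28_52 had 719, 743 and 317 CPM, at a log2 difference of -1.61 from CUP1_WT (95% interval -3.36 to 0.14). In W5A_W18A_del28_52 it had 1196, 1374 and 624 CPM, at -0.75 (-2.50 to 1.01). Replicates 1 and 2 alone gave 2 calls of 9 in del28_52, CWP1 and PIR1, where 28.4% of all features were called in that fit. They gave the same 2 in del28_52_130_155 (31.4%), and PIR1 in W5A_W18A_del28_52 (30.7%).

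In W177A against CUP1_WT, the comparison that chose TIP1, 20.5% of all features were called. The other 9 genes had log2 differences from -1.94 for CWP1 to 0.67 for PIR1 and a median over the 10 genes of 0.13, and these are given without a test. PIR1 had 61.4, 54.4 and 103.6 CPM in W177A and 40.8, 38.6 and 54.1 CPM in CUP1_WT. Against pho92_null, W177A differed in none of the 9 genes beyond the threshold, with log2 differences from -0.61 for PIR3 (95% interval -1.86 to 0.65) to 0.66 for CWP1 (-1.09 to 2.41).

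The strain W5A_W18A_del28_52 allowed a test of whether substitutions and deletion act additively on the log2 scale. CWP1 departed from the sum of the W5A_W18A and del28_52 differences by 4.14 (SE 1.21, limma adjusted p = 0.0283), and was the 1 gene called of 9, where 12.6% of all features were called. That call was lost without CUP1_WT replicate 1 (0.119) or 2 (0.0659), W5A_W18A replicate 1 (0.0668), del28_52 replicate 3 (0.0822) or W5A_W18A_del28_52 replicate 1 (0.0579) or 2 (0.0576), in a range of 0.000112 to 0.119. CIS3 had the next departure, 1.89 (95% interval 0.47 to 3.31, limma adjusted p = 0.0675). In the single terms CWP1 stood at -3.27 and -1.61 from CUP1_WT and in the joint strain at -0.75. CWP1 in pho92_null lay 2.60 below CUP1_WT, and in the lowest strain, del110_155, it stood at -3.97. The sum of the single terms is thus lower than the mean of any strain. Whether so low a level can be reached was not tested, so the test cannot tell a lower limit from an interaction. Against pho92_null the joint strain was not called (log2 1.86, limma adjusted p = 0.281). The marker sum of the joint strain was 7059, 6799 and 4652 CPM, wholly above W5A_W18A and overlapping del28_52 (4889, 4677 and 2121 CPM), and its part in the departure was not tested. PHO92 had 8045, 6999 and 8554 CPM in the joint strain. That was wholly below W5A_W18A (15182, 16626 and 12749 CPM) and del28_52 (9401, 8947 and 9664 CPM). The part of the PHO92 level was not tested either.

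Spread between libraries of a strain was wide for these genes. The median within-strain SD of log2 CPM was 0.42 over the 10 genes and 0.22 over all 5840 features, and the SD of strain means was 0.44 and 0.23. For CWP1, whose SD within strains was 1.10, replicate 3 was the lowest library in 12 of the 13 strains, as it was for PIR3. For PIR1 replicate 3 was the highest library in 11 of 13, and for TIP1 and CCW12 in 8 of 13. What the replicate number stands for is not said in the labels.

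Across strains the 10 genes did not move as 1 group. Over the 13 strain means of log2 CPM, which share scaling and libraries, the closest pairs were HSP150 with CCW12 (Pearson r = 0.84), CWP1 with CIS3 (0.82) and PIR3 with SED1 (0.81), and the most opposed were CWP1 with PIR1 (-0.87) and CIS3 with CCW12 (-0.82). Without del110_155 these were 0.93, 0.84 and 0.64, and -0.86 and -0.81. Against the middle meiosis marker sum, CWP1, CIS3 and TIR1 had r of 0.99, 0.83 and 0.79, and PIR1 and CCW12 had -0.89 and -0.85. Leaving out del110_155 moved HSP150 from -0.57 to -0.87, CWP2 from -0.44 to -0.70 and PIR3 from 0.08 to -0.70. It moved SED1 from 0.15 to -0.30, TIP1 from -0.43 to -0.32 and TIR1 from 0.79 to 0.69. Against the early marker sum, over all 13 strain means, CWP1, CIS3 and TIR1 had r of 0.75, 0.66 and 0.85. PIR1 and CCW12 had -0.70 and -0.79 with that sum. The genes whose strain means were most like TIP1 among the 5840 features were ARP8 (YOR141C, r = 0.98), ASI3 (YNL008C, 0.97), ABP1 (YCR088W, 0.97), DIS3 (YOL021C, 0.97) and MSH6 (YDR097C, 0.97).

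Other wall genes were taken from lists of 15 further mannoproteins, 24 genes of glucan and chitin synthesis and remodelling, and 17 genes of the cell wall integrity pathway and its regulators. Of the mannoproteins, 14 were tested, and in WT against pho92_null 2 were higher and 2 lower, where 33.2% of all features were called. PIR5, a PIR gene next to HSP150 on the chromosome, rose from 147 ± 108 CPM in pho92_null to 1457 ± 1045 CPM in WT (SD, n = 3 each). Its log2 difference was 3.25 (SE 1.09, limma adjusted p = 0.0243). TIR2, a relative of TIR1, rose by 1.95 (SE 0.49, limma adjusted p = 0.0051), while PST1 and ECM33, a pair of related GPI proteins, fell by 0.91 and 0.71. In CUP1_WT PIR5 and TIR2 were higher and PST1 and FLO11, the flocculin of filamentous growth, lower, 4 of 14 against 39.9% of all features. FLO11 had a mean of 7033 ± 4231 CPM in pho92_null and 1768 ± 343 CPM in CUP1_WT (SD, n = 3 each), and differed by -1.76 on the log2 scale (SE 0.59, limma adjusted p = 0.019). The median of the list was -0.05 in WT and 0.06 in CUP1_WT, against -0.04 and -0.03 over all features.

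Of the 23 glucan and chitin genes tested, 5 were higher and 8 lower in WT (33.2% of all features called) and 4 higher and 7 lower in CUP1_WT (39.9%) than in pho92_null, with list medians of -0.21 and -0.14. KRE6, needed for beta-1,6-glucan, rose by 1.02 in WT and 0.94 in CUP1_WT, and GSC2, a glucan synthase subunit known from sporulation, by 0.81 and 0.72. EXG1, an exo-glucanase of the wall, had a log2 difference of -1.33 in WT (SE 0.36, limma adjusted p = 0.00807) and SCW10, a glucanase-like wall protein, of -0.90 (SE 0.33, limma adjusted p = 0.0369). Of the 17 integrity pathway genes, 1 was higher and 2 lower in WT, and 1 higher and 3 lower in CUP1_WT, beside the same 33.2% and 39.9% of all features. RLM1, the transcription factor at the end of the pathway, rose by 0.71 in WT and 0.76 in CUP1_WT, whereas the wall sensor gene SLG1 fell by 0.39 and 0.60 and the kinase gene MKK2 by 0.36 and 0.45. In CUP1_WT the kinase gene MKK1 also fell, by 0.29.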

How the data were processed

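RNA was sequenced from 39 libraries. Titles gave the strain and the replicate number. The authors deposited 1 table that holds, below 46 heading and annotation lines, whole-number counts for 6186 features. Those annotation lines share the columns, which were therefore not handled as plain count columns, and limma (version 3.58.1, R version 4.3.3) was run on log2 CPM in place of a count test. STAR 2.7.10a, RSEM 1.3.1 and DESeq2 1.48.1 are named in the submitters' processing notes, with no role. Neither the genome build nor whether counting used strand is given in the sources used here, so no coordinates or sequences are printed, and identifiers were named from RefSeq assembly R64 (5630 matched).

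A feature was kept if 3 or more libraries reached the rate that equals 10 counts in a library of median size and its total was 15 or more. TMM factors (trimmed mean of M-values) scaled the libraries, and the prior count was 2, which understates changes of low genes. A single fit held all 39 libraries, with 1 term per strain, a variance trend and 26 residual degrees of freedom. P-values were adjusted by Benjamini-Hochberg over the 5840 features of each of 23 comparisons. CPM are not corrected for length, so levels are not compared between genes. The code was tested on simulated data.

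Named are the 10 genes, PHO92, the listed wall genes with the greatest called change (at most 3 a direction, list and comparison) and the 5 features most like TIP1. The genes and lists were chosen with earlier results of these data known. DAN4 and UTH1 were not analysed here. Alternatives were other size factors (RLE), no filter, a fit of the compared strains alone, the replicate number as a block, a prior count of 0.5, voom weights and leaving out each library. Replicates 1 and 2 alone were added after the data had been seen.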

Additional observations from a re-analysis of the deposited data

Results flagged for a closer look

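CWP1 was the only gene of the 9 tested whose effect in 1 background differed from that in another by a test of the difference itself. That test called 12.6% of all features, and 0.428% without CUP1_WT replicate 1. The CWP1 level in W5A_W18A_del28_52 lay 4.14 above the sum of the W5A_W18A and del28_52 differences on the log2 scale (limma adjusted p = 0.0283 over 5840 features). The libraries had 1196, 1374 and 624 CPM in the joint strain, 109, 261 and 187 CPM in W5A_W18A and 719, 743 and 317 CPM in del28_52. The call was lost without CUP1_WT replicate 1 (0.119) or 2 (0.0659), W5A_W18A replicate 1 (0.0668), del28_52 replicate 3 (0.0822) or W5A_W18A_del28_52 replicate 1 (0.0579) or 2 (0.0576), in a range of 0.000112 to 0.119 over all alternatives, and the departure lay between 3.54 and 4.87. The added differences lay below the CWP1 mean of every strain, so a lower limit cannot be told from an interaction. The middle meiosis marker sum and the PHO92 level differed between the same strains, and their part was not tested.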

How the results depend on the processing

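No called gene changed direction in any alternative run. The numbers of the 10 genes called kept within 1.5 times with RLE size factors, no filter, a prior count of 0.5 and voom weights. In the fit of the compared strains alone there was 1 call for WT (share of all features called in that fit 7.45%), 0 for CUP1_WT (16.5%), 0 for W5A (2.03%) and 0 for W5A_W18A_del28_52_110_155 (0.0176%) against pho92_null, 1 for del28_52 (22.1%) and 1 for del110_155 (8.35%) against CUP1_WT, and 3 for the departure from additivity (18.6%). With replicates 1 and 2 alone there were 3 for W5A (15.4% of all features), 5 for W18A (42.3%), 0 for W5A_W18A (9.34%), 4 for del1_70 (20.8%), 1 for del28_52_130_155 (13.8%) and 4 for W5A_W18A_del28_52_110_155 (28.5%) against pho92_null, 2 for del28_52 (28.4%), 2 for del28_52_130_155 (31.4%) and 1 for W5A_W18A_del28_52 (30.7%) against CUP1_WT, and 3 for the departure (22.8%). The cause was not tested.

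Same-numbered libraries deviated from their strain means together with a mean correlation of 0.286 over 234 pairs of libraries, 166 of them above 0.1 and the lowest -0.456, and 30 of 39 libraries correlated best with their own number. The libraries thus share a number and no stated pairing. With the replicate block there were 2 calls for W5A (21.9% of all features), 7 for W18A (47%), 4 for del1_70 (24.9%), 1 for del28_52 (13.9%), 2 for del110_155 (2.29%), 1 for del28_52_130_155 (9.76%) and 1 for W5A_W18A_del28_52 (8.66%) against pho92_null, 1 for del28_52 (33.4%) and 1 for del28_52_130_155 (34.9%) against CUP1_WT, and 2 for the departure (24%). Gained under the block against pho92_null were SED1 in CUP1_WT, W18A, del1_70 and del110_155, TIR1 in WT, W18A, del1_70, del28_52 and del28_52_130_155, and CWP1 in del1_70, W5A_W18A_del28_52 and W5A_W18A_del28_52_110_155. TIP1 was gained in del1_70, PIR1 and CCW12 in W18A, PIR3 in del110_155 and HSP150 in W5A. Against CUP1_WT, CIS3 was gained in W5A and W5A_W18A, PIR3 in del110_155 and CWP1 in del28_52 and del28_52_130_155, and CIS3 for the departure.

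Without 1 library at a time, calls against pho92_null ran from 1 to 5 for WT, 0 to 5 for CUP1_WT, 0 to 2 for W5A, 1 to 6 for W18A, 0 to 1 for W5A_W18A, 0 to 2 for del1_70, 0 to 2 for del28_52, 0 to 1 for del28_52_130_155 and 0 to 4 for W5A_W18A_del28_52_110_155. Against CUP1_WT they ran from 2 to 6 for W5A, 0 to 5 for W5A_W18A, 0 to 1 for del1_70, 1 to 5 for del110_155 and 0 to 1 for del28_52_130_155, and for the departure from 0 to 2. A fit without 1 library assumes that its strain varies like the others. With 3 libraries a strain, intervals are wide for CWP1 (-2.05 to 1.45 in W18A against CUP1_WT on the log2 scale), PIR3 and CIS3.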
